A study of Mus musculus with 38 samples.

Results

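The genes described here encode enzymes of xenobiotic handling in the mouse gut, namely cytochromes P450 of the Cyp2 and Cyp3a groups, glucuronosyltransferases (Ugt1a and Ugt2), glutathione transferases (Gst) and sulfotransferases (Sult). Members were chosen by name and by their read counts in these libraries, as protein-coding genes with a symbol starting Cyp2, Cyp3a, Ugt1a, Ugt2, Gst or Sult, without Gsta1, Ugt1a6a and Ugt1a6b, and with at least 10 reads in at least 3 libraries. Of 126 protein-coding genes with such a symbol, 80 were members. The prefix Cyp2 also takes Cyp20a1, Cyp21a1, Cyp26b1, Cyp27a1 and Cyp27b1, of which all but Cyp20a1 are known to act on sterols, steroids, retinoic acid or vitamin D, and these 5 are kept apart as a family. Cyp2a4 met the read minimum in 3 libraries, Ugt2b38 in 4, and Cyp2a5 and Cyp2b10 in 6. Cyp24a1, Cyp2a22, Cyp2c29, Cyp2c39, Cyp2j5 and Sult2a1 reached it in 2 libraries and are not members.

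Cytochromes P450 of these groups are membrane enzymes that oxidise drugs, plant compounds, fatty acids and steroids. Glucuronosyltransferases, glutathione transferases and sulfotransferases then attach a sugar acid, glutathione or sulfate, which makes the product easier to excrete. In the gut the epithelium carries these enzymes, and many of them are known to differ in level between small intestine, proximal colon and distal colon.

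The study sequenced RNA from dissected intestinal tracts of mice described as having colorectal cancer and fed black rice or a control diet, in 3 tables of read counts. The Apc table held 3 libraries each of black rice F, black rice M, control F, control M, WT F and WT M, where the letters are those of the titles, and its library columns were named Colon. The AOM table held black rice and control libraries, again coded F and M, and the third table held 4 black rice and 4 control libraries without such a code. The name of the third table has the letters FMT in it, which the labels leave unexplained, so what its arms received beside the named diet is not known here. The labels gave every library the tissue intestinal tract, gave WT libraries no treatment, and gave no age, strain or wording for the letters Apc, AOM and WT. They do not say whether replicates were separate animals, so p-values measure the spread between these libraries.

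Depth was 44.8 to 61.9 M reads per library in the Apc table, 37.9 to 55.1 M reads in 11 AOM libraries and 66.6 to 91.0 M reads in the third table. The other AOM library, black rice F replicate 3, held 5.37 M reads and abundant liver transcripts, with 16886 reads of Cyp2e1 and 9139 of Cyp2a4, and it is left out of all values below unless named. Without it 79 genes met the read minimum, and Cyp2a4, then at 2 libraries, did not. Epithelial genes were at high level in every table, with Epcam at 921 CPM or more (CPM, the reads of a gene divided by the library's reads in M). Some small intestinal genes varied widely and others did not. In the Apc table Fabp6, a bile acid carrier of the ileum, ran from 1.92 to 284 CPM and Sis, the brush border sucrase, from 0.619 to 80.8 CPM, while Lct, the lactase of the upper small intestine, stayed at or below 0.413 CPM and Slc5a1, the glucose carrier of the brush border, ran from 97.01 to 184 CPM. Hoxb13, a gene of the distal colon, ran from 0.448 to 299 CPM in the same table. Since the samples were bulk tissue, fewer cells of a type and less RNA per cell cannot be told apart in any result here.

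Members took 0.276 to 0.715% of all reads in Apc libraries, 0.199 to 0.789% in AOM libraries and 0.507 to 0.848% in libraries of the third table. Over the 37 libraries, 43 members reached 1 CPM in every library, 24 in some and 13 in none, and a library held 51 to 59 members at that level (median 53). To compare genes, CPM was divided by the length in kilobases of exon that no other gene overlaps. On that scale Cyp2c55 was the highest member, with a median of 477 CPM per kb, followed by Sult1a1 at 289, Gsto1 at 208, Gstm1 at 135 and Ugt2b34 at 135. Cyp2c55 oxidises arachidonic acid, Sult1a1 sulfates phenols, Gsto1 is an omega class transferase, Gstm1 a mu class transferase, and Ugt2b34 a glucuronosyltransferase. The Cyp2a and Cyp2b genes, with Cyp2ab1 counted among them, were the lowest family. In it 4 of 5 members were under 1 CPM in every library, although Cyp2a and Cyp2b genes are prominent in mouse liver.

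**Figure D1:**
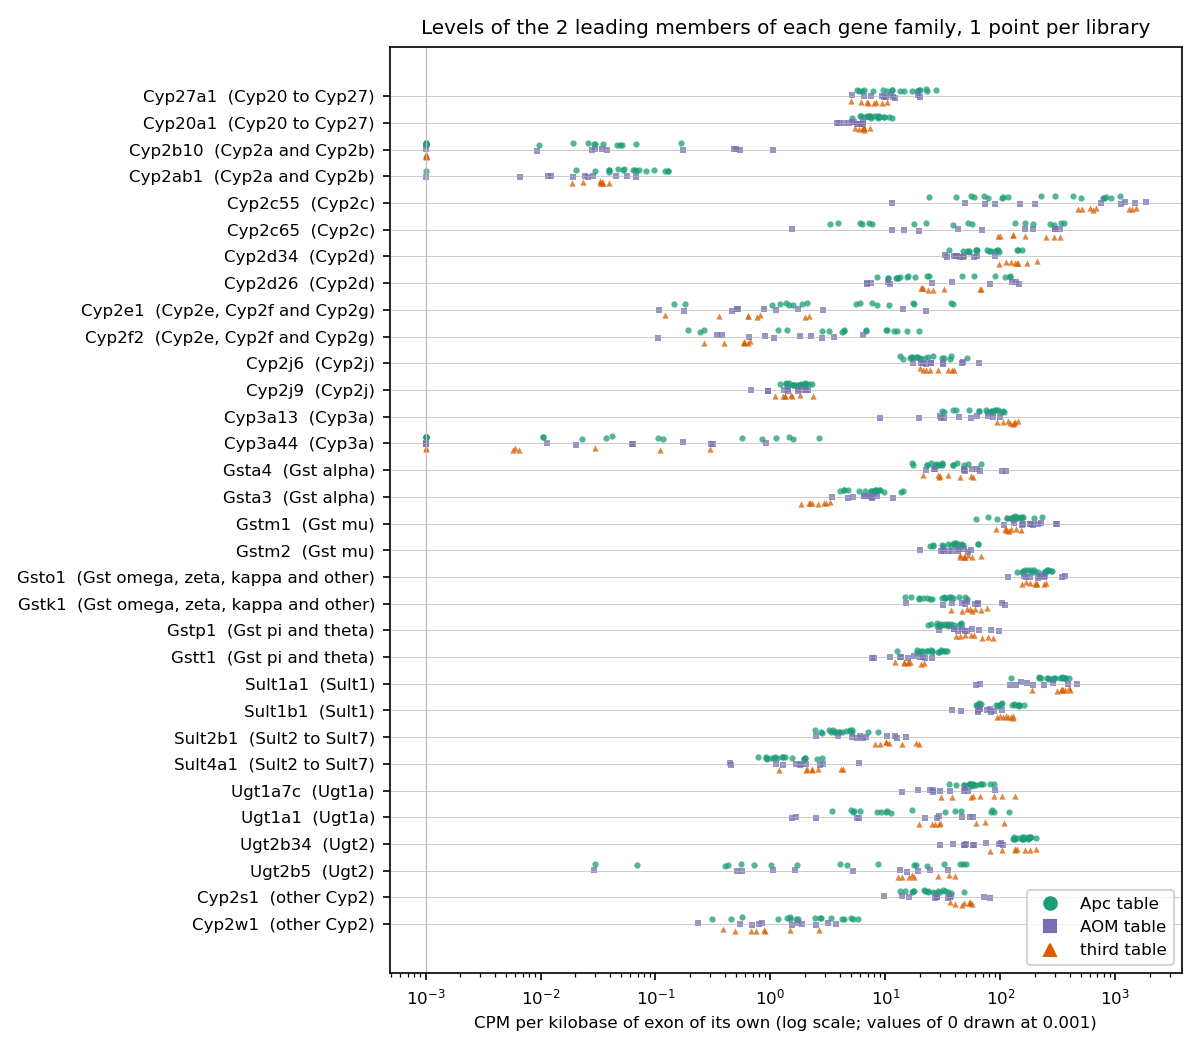
Level of the 2 leading members of each family in each of the 37 libraries, 1 point per library, with shape and colour for the table, as CPM per kb of exon not shared with another gene on a log scale (values of 0 are drawn at the left edge). Cyp2c55 had the highest median at 477 CPM per kb, and Cyp2c55, Cyp2c65, Cyp2e1, Cyp2f2, Ugt2b5 and Cyp3a44 spread widely among libraries of 1 table.

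Levels varied among libraries as well as among genes. Cyp2c55 had a lowest CPM of 22.1, a median of 922 and a highest of 3572 over the 37 libraries. It made up 1.64 to 29.6% of all member reads in Apc libraries, 1.09 to 42.8% in AOM libraries and 18.6 to 34.5% in the third table, and was the most read member in 7 of 18, 5 of 11 and 8 of 8 libraries. Cyp2c65, its neighbour and also an arachidonic acid oxidase, ran from 2.95 to 685 CPM with a median of 193 CPM. Of the Cyp2d group, whose human counterpart CYP2D6 oxidises many drugs, Cyp2d34 had a median of 76.4 CPM per kb and Cyp2d26 one of 22.9. In the Cyp3a group Cyp3a13, the main Cyp3a enzyme of mouse gut, ran from 26.7 to 422 CPM with a median of 246 CPM, whereas Cyp3a44 reached 1 CPM in 7 libraries.

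The highest conjugating enzymes ranged less widely. Gsto1 ran from 235 to 743 CPM with a median of 422 CPM, and Sult1a1 from 89.3 to 676 CPM with a median of 419 CPM. Gstm1 ran from 89.7 to 462 CPM, and all 7 mu class members reached 1 CPM in every library. Sult1b1, which sulfates phenols and thyroid hormone, had a median of 96.9 CPM per kb, Ugt1a7c one of 54.5, Gstp1 one of 40.9, Gstk1 of mitochondria and peroxisomes one of 38.9, and Gsta4, which conjugates aldehydes from oxidised lipids, one of 31.3. Ugt1a genes share their last exons, so reads there belong to no single gene, and the exon sequence of Ugt1a1 that is its own is 17.3% of the whole. Counts of close copies within the Cyp2c, Cyp2d, Cyp3a, Ugt2b, Gstm and Gstp groups are uncertain too, because reads of near-identical sequence can be assigned to the wrong copy.

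Many Cyp2c genes lie side by side on chromosome 19, where 14 members map, and the Cyp2d genes on chromosome 15, so neighbours with unlike behaviour can be compared by sequence. In the Apc table, as given further on, Cyp2c55, Cyp2c65, Cyp2c66 and Cyp2d26 rose with small intestinal markers, and Cyp2c68 and Cyp2c69 with distal colon markers. In the AOM table Cyp2c69 had a slope of -0.20 on the distal colon markers. The promoter windows of these 6 genes are printed because of their split in the Apc table. They run 5′ to 3′ from 250 bases before to 50 bases after the start, from RefSeq on GRCm38.p6, at chr19:39006769-39007068 on the plus strand for Cyp2c55, chr19:39060756-39061055 on the plus strand for Cyp2c65, chr19:39113648-39113947 on the plus strand for Cyp2c66, chr19:39741052-39741351 on the minus strand for Cyp2c68, chr19:39886720-39887019 on the minus strand for Cyp2c69, and chr15:82794196-82794495 on the minus strand for Cyp2d26. Capitals mark every match, on either strand, to 1 of 7 motifs named after the sequences.
Cyp2c55: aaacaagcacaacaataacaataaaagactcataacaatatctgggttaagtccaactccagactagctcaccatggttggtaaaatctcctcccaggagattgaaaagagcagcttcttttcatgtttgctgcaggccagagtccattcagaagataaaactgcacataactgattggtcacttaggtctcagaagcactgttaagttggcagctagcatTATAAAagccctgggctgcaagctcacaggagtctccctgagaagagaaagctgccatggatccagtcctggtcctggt
Cyp2c65: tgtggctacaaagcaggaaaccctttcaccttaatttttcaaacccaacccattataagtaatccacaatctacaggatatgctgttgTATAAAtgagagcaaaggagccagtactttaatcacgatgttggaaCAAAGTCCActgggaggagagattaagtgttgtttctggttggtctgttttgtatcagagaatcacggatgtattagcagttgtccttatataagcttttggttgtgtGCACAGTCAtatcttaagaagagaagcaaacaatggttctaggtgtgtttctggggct
Cyp2c66: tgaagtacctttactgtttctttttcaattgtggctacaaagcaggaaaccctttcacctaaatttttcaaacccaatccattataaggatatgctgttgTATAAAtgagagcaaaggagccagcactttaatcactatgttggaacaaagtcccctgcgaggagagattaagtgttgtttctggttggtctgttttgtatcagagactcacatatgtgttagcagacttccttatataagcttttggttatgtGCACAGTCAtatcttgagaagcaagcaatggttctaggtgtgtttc
Cyp2c68: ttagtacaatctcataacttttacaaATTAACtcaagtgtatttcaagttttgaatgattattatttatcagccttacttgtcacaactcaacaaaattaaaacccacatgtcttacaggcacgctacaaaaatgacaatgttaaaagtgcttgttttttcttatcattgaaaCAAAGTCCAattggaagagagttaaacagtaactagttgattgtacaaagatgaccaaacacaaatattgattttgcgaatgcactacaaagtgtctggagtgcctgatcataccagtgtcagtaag
Cyp2c69: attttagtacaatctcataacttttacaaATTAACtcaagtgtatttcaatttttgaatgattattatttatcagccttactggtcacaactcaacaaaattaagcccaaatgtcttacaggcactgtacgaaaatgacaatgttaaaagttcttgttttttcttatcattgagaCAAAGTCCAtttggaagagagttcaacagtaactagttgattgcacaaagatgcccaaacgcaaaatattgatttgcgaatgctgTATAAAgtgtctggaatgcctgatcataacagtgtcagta
Cyp2d26: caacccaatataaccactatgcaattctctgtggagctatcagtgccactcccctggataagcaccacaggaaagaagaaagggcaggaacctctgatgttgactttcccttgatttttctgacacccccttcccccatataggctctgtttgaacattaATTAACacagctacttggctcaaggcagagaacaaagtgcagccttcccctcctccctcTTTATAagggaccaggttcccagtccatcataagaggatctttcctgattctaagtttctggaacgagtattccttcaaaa

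A promoter window was found for 71 of the 80 members, and each motif was searched on both strands. Member shares count genes with a match in any of their windows, whereas the shares set beside them count single windows. The units are unlike, because a gene with several windows has more chances to match. The element bound by HNF4, a regulator of liver and gut genes, was searched as CAAAGTCCA. It stood in 8 of 71 members (11.3%), against 0.475% of 32851 mouse windows, in Cyp2c40, Cyp2c65, Cyp2c67, Cyp2c68, Cyp2c69, Cyp2c70, Cyp3a11 and Sult1b1. Of these genes 6 lie in 1 cluster of related copies, so they are not independent cases. The letters of the TATA box, TATAAA, stood in 24 members (33.8%), against 13.6% of all windows, at any position and on either strand. In the printed windows the match began at base -29 in Cyp2c55, -31 in Cyp2d26 (as TTTATA), -162 in Cyp2c65, -150 in Cyp2c66 and 11 in Cyp2c69. A match is therefore not taken to be a working TATA box. The shorter site of HNF1, another liver and gut factor, was searched as GTTAAT and stood in 10 (14.1% against 7.1%). The site of caudal factors such as Cdx2, as TTTATG, stood in 7 members (9.86% against 11.9%). The core of the antioxidant response element, as TGACNNNGC, stood in 6 (8.45% against 12.4%). The DR1 direct repeat of nuclear receptors and the HNF1 palindrome matched no member window, against 0.0396% and 0.00913% of all windows. The windows of Cyp2c65 and Cyp2c66 were identical at 94.5% of 271 aligned bases, and those of Cyp2c68 and Cyp2c69 at 93.6% of 296. CAAAGTCCA was found in Cyp2c65, Cyp2c68 and Cyp2c69 and not in Cyp2c55, Cyp2c66 or Cyp2d26. The printed windows were chosen by the slopes of their genes, and those of Cyp2c68 and Cyp2c69 are near copies. A link between the element and either pattern was not tested.

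The main question of the design is whether black rice changes gene expression in the gut. No member passed the threshold in any of 13 comparisons (edgeR quasi-likelihood test with Benjamini-Hochberg adjustment across every gene tested in that table, threshold 0.05). The smallest adjusted p of a member was 0.113, for Cyp3a25 between F and M libraries of the Apc table. Members tested numbered 74 in the Apc table, 71 in the AOM table and 67 in the third table. The share of all genes past the same threshold was 0.0139% for black rice against control in the Apc table, 0% in the AOM table and 0% in the third table, so a count of 0 members lies near the background and does not show that members did not differ.

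In the Apc table members lay lower on black rice on average. Of 74 tested, 14 had a positive and 60 a negative log2 difference between black rice and control, with a median of -0.26, against -0.01 over all genes. At an unadjusted p under 0.05 there were 11 members (14.9%), where all genes gave 10.3%. Members with the smallest p are named here as not passing. They were Cyp3a25, Gsto1 and Cyp2w1 among those lower, and Cyp2u1, Sult5a1 and Cyp27b1 among those higher.

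Gsto1 was measured at 280, 377 and 375 CPM in black rice F libraries and 399.5, 316 and 353 CPM in black rice M libraries, against 559, 522 and 315 CPM in control F libraries and 432, 572 and 518 CPM in control M libraries. The M groups do not overlap, while control F replicate 3 lies within the black rice F range. Its log2 difference was -0.49 (SE 0.16, edgeR adjusted p = 0.356). Cyp2w1, whose human counterpart CYP2W1 is known from colon tumours, had 2.65, 5.12 and 4.12 CPM in black rice F libraries and 0.866, 1.77 and 0.474 CPM in black rice M libraries, against 7.98, 8.85 and 3.72 CPM in control F libraries and 2.52, 2.27 and 7.63 CPM in control M libraries. All black rice M libraries lay below the control M libraries, and the F groups overlap (log2 difference -1.40, SE 0.47, edgeR adjusted p = 0.361). Among members higher on black rice, Cyp2u1, a fatty acid hydroxylase, differed by 0.47 (SE 0.22) and Sult5a1 by 1.29 (SE 0.62), with edgeR adjusted p of 0.475 and 0.494. Sult5a1 was near the floor and reached 1 CPM in 1 of the 37 libraries.

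The M libraries had the larger differences. There 12 members had a positive and 62 a negative difference, with a median of -0.53 against -0.01 over all genes, and 14 members had an unadjusted p under 0.05 (18.9% against 8.54% of all genes), each of them lower on black rice, while 0.0324% of all genes passed the adjusted threshold. In F libraries 35 were positive and 39 negative, with a median of -0.05 against 0.01, and no member had an unadjusted p under 0.05, against 10.2% of all genes. The F difference minus the M difference had a median of 0.55 over members, against 0.01 over all genes. By the test of that difference 8 members had an unadjusted p under 0.05 (10.8% against 8.89%) and none an adjusted p under 0.05. The smallest adjusted p was 0.410, for Cyp27a1.

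**Figure D2:**
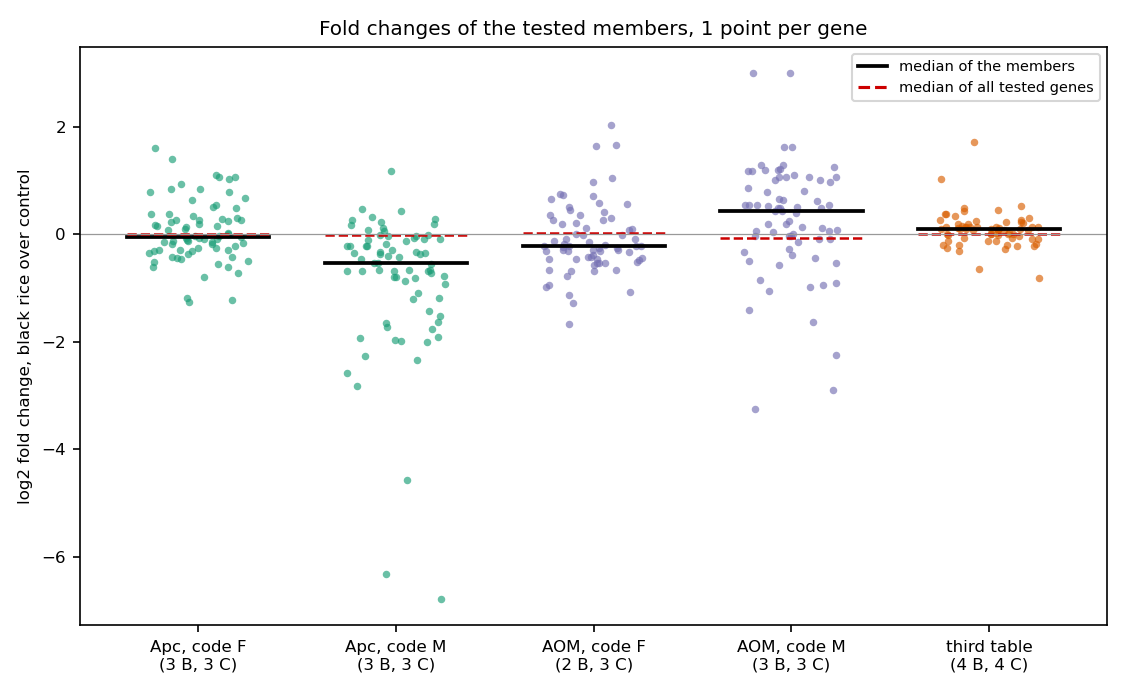
Log2 difference, black rice (B) minus control (C), for each tested member in each table and code, from the edgeR fits, 1 point per gene. Solid lines mark the median of the members and dashed lines that of all tested genes, and the median of the members lies at -0.53 in Apc M libraries and 0.42 in AOM M libraries, with no member past the adjusted threshold.

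Cyp27a1, the mitochondrial sterol hydroxylase, had 12.4, 17.0 and 13.6 CPM in black rice M libraries, against 50.2, 28.9 and 43.4 CPM in control M libraries. These groups do not overlap, whereas the F groups do, with 22.6, 41.0 and 60.1 CPM on black rice and 24.9, 31.3 and 20.7 CPM on control. Its M difference was -1.53 (SE 0.45, edgeR adjusted p = 0.374). Cyp2d22, often taken as the mouse counterpart of human CYP2D6, had 17.4, 18.3 and 10.1 CPM in black rice M libraries, against 32.9, 25.4 and 27.8 CPM in control M libraries (M difference -0.93, SE 0.29, edgeR adjusted p = 0.397). Cyp3a25 had 1, 1 and 2 reads in black rice M libraries, against 20, 9 and 79 reads in control M libraries (M difference -4.58, SE 1.29, edgeR adjusted p = 0.337). DESeq2 called this gene lower, as the 1 member among 0.708% of all genes.

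In the M libraries 15 of 74 members (20.3%) had black rice and control groups that do not overlap, against 13% of all genes. Of these 14 lay below control and Sult5a1 above it. In the F libraries there were 4 members (5.41% against 20.5%), with Gstm3, Gstp1, Gstp3 and Sult2b1 below control. Gstm3, a mu class transferase, had 13.2, 18.8 and 18.7 CPM in black rice F libraries, against 27.6, 22.9 and 26.9 CPM in control F libraries (F difference -0.62, SE 0.29, edgeR adjusted p = 0.488). Other cell type lists also lay apart between the F groups. The B and plasma cell list had means of 2.4 to 4.44 log2 CPM in black rice F libraries, against 4.89 to 6.83 in control F libraries, the T cell list 1.29 to 2.46 against 2.5 to 3.45, and the smooth muscle list 7.96 to 8.58 against 7.6 to 7.67. Their part in the F differences was not tested. The small intestinal enterocyte list, described further on, had means of 2.01, 1.49 and 1.5 log2 CPM in black rice M libraries, against 2.08, 1.90 and 3.36 in control M libraries, so the M groups overlap. The hepatocyte list of 12 genes lay apart, with means of 0.42 to 1.18 log2 CPM in black rice M libraries, against 1.2 to 1.88 in control M libraries. The summed CPM of its genes overlaps, at 58.2 to 91.4 in black rice M libraries and 76.5 to 181 in control M libraries, and at most 1 of its genes was at 0 in a library. Its part in the M differences was not tested. With the mean of the enterocyte list as a covariate the member median in M libraries was -0.34, with 21 members positive and 53 negative, and with the Hox list it was -0.35. Leaving out 1 M library at a time gave medians from -0.69 (without black rice M replicate 1) to -0.39 (without black rice M replicate 3 or control M replicate 2).

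Against WT, the control arm of the Apc table showed members balanced around no difference. Of 74, 36 had a positive and 38 a negative difference with a median of -0.01, against 0 over all genes, and 4 had an unadjusted p under 0.05 (5.41% against 4.25%). No gene of the table passed the adjusted threshold in this comparison (0%). Cyp3a25, Cyp2a5 and Cyp3a44 had the smallest p among those higher, and Sult4a1, Cyp2u1 and Gstm5 among those lower, all with an edgeR adjusted p of 0.999. In F libraries 12 members (16.2% against 10.9% of all genes) had groups that do not overlap, with 11 of them below WT. Those below include Cyp2d9, Cyp2d10, Cyp2d11, Cyp2d12, Cyp2d34, Sult1a1 and Sult1b1, of which Cyp2d11 stayed under 1 CPM in both groups. The Hox list, described further on, had means of 0.34, 4.07 and 3.56 log2 CPM in these control F libraries, against 3.74, 4.07 and 3.28 in WT F libraries, with overlap. Of the 12 lists, 5 did not overlap between these groups. The colonocyte list had means of 8.2 to 8.53 log2 CPM in control F libraries, against 8.86 to 9.15 in WT F libraries, the smooth muscle list 7.6 to 7.67 against 7.83 to 8.39, and the neuron and glia list 2.43 to 3.07 against 3.24 to 4.06. The macrophage list had 4.54 to 5.08 in control F libraries, against 3.8 to 4.32 in WT F libraries, and the T cell list 2.5 to 3.45 against 2.17 to 2.4. The part of these lists in the F values was not tested. In M libraries there were 6 members whose groups do not overlap (8.11% against 5.78%), with Cyp2d26, Cyp2s1, Cyp2t4, Cyp3a11 and Cyp3a25 above WT. Cyp2t4 and Cyp3a11 stayed under 1 CPM in both groups. The hepatocyte list had means of 1.2 to 1.88 log2 CPM in these control M libraries, against 0.36 to 1.1 in WT M libraries, and the colonocyte list 8.34 to 8.56 against 8.66 to 9.28. Neither list overlaps between the M groups, and their part was not tested. Black rice against WT had 13 members positive and 61 negative, with a median of -0.32 against 0, and 9 members with an unadjusted p under 0.05 (12.2% against 8.17%; adjusted threshold 0.0139% of all genes). Gstm4 differed by -0.42 (SE 0.13) and Gstt1 by -0.47 (SE 0.17), Sult5a1 by 1.88 (SE 0.65), all with an edgeR adjusted p of 0.590. Sult5a1 was near the floor, at 0.8135, 1.62 and 0.1305 CPM in black rice F libraries, against 0.147, 0.187 and 0.442 CPM in WT F libraries. Its M libraries had 0.268, 0.540 and 0.309 CPM on black rice, against 0, 0.1785 and 0.0862 CPM in WT. Black rice and WT groups did not overlap for 6 members in F libraries (8.11% against 14.6% of all genes) and 7 in M libraries (9.46% against 7.38%). The B and plasma cell list lay apart between the F groups. Its means were 2.4 to 4.44 log2 CPM in black rice F libraries, against 5.4 to 5.8 in WT F libraries, and its part was not tested. The black rice and WT comparisons share libraries with those above, so they are not independent of them.

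Between codes, 22 of 74 members (29.7%) had an unadjusted p under 0.05 in the Apc table, where all genes gave 15.1%, and 0.074% of all genes passed the adjusted threshold. Cyp3a25 had 29, 67 and 15 reads in black rice F, 59, 72 and 10 in control F and 10, 3 and 65 in WT F libraries, against 1, 1 and 2 in black rice M, 20, 9 and 79 in control M and 1, 1 and 2 in WT M libraries. Control M libraries reach the F range and the other M libraries do not (log2 difference 2.97, SE 0.69, edgeR adjusted p = 0.113). Cyp3a44, known in mouse liver as a gene higher in females, had 85, 282 and 11 reads in black rice F, 59, 142 and 4 in control F and 14, 1 and 154 in WT F libraries, against 1, 0 and 0 in black rice M, 4, 0 and 106 in control M and 0, 2 and 0 in WT M libraries (4.95, SE 1.28, edgeR adjusted p = 0.137). Low and high libraries occur in both codes. DESeq2 called 3 members higher in F libraries, Cyp3a25, Cyp3a44 and Cyp2w1, among 2.52% of all genes. Cyp2w1 differed by 1.24 (SE 0.38), Sult2b1, which sulfates cholesterol, by -0.53 (SE 0.16) and Cyp2c69 by -1.24 (SE 0.44), with edgeR adjusted p of 0.178, 0.176 and 0.223. Among AOM libraries 7 members had an unadjusted p under 0.05 (9.86% against 8.44%), and 0.0365% of all genes passed the adjusted threshold. Cyp2e1 had the smallest p there and differed by 3.80 (SE 1.02, edgeR adjusted p = 0.571).

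In the AOM table the direction was the other one. Black rice against control had 45 members positive and 26 negative with a median of 0.14, against -0.02 over all genes, and 3 had an unadjusted p under 0.05 (4.23% against 3.06%). In M libraries 48 were positive and 23 negative, with a median of 0.42 against -0.07, and 10 had an unadjusted p under 0.05 (14.1% against 13.8%). In F libraries, where black rice had 2 libraries, 25 were positive and 46 negative, with a median of -0.23 against 0.02 and 3 with an unadjusted p under 0.05 (4.23% against 3.27%). The F minus M difference had a median of -0.60 over members against 0.08 over all genes, and 8 members had an unadjusted p under 0.05 (11.3% against 14%). The diet difference between the Apc and AOM tables was not tested.

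Members with the smallest p in the diet comparisons of the AOM table are named here as not passing. Gstp1, the pi class transferase, had 149.5, 129 and 100.1 CPM in black rice M libraries, against 88.4, 79.4 and 45.5 CPM in control M libraries, and 66.9 and 60.9 CPM in black rice F libraries, against 71.8, 77.0 and 61.7 CPM in control F libraries. The M groups do not overlap and the F groups do (M difference 0.81, SE 0.25, edgeR adjusted p = 0.331). Gsta4 had 141, 132 and 72.1 CPM in black rice M libraries, against 60.6, 62.1 and 28.4 CPM in control M libraries (M difference 1.17, SE 0.44, edgeR adjusted p = 0.340). Its 2 black rice F libraries, at 83.6 and 34.3 CPM, bracket 2 of the 3 control F libraries, at 61.6, 79.6 and 33.4 CPM. Gsta3, an alpha class transferase, had 14.8 and 20.7 CPM in black rice F libraries, against 50.5, 28.4 and 33.1 CPM in control F libraries, and lay apart there (F difference -1.08, SE 0.30, edgeR adjusted p = 0.985). Gstp3 lay apart too, with 6.76 and 6.30 CPM in black rice F libraries, against 12.2, 10.3 and 10.95 CPM in control F libraries (F difference -0.78, SE 0.21, edgeR adjusted p = 0.985). With the liver-bearing library black rice F replicate 3 included, these F differences were 2.93 for Gsta3 and 1.78 for Gstp3. Gstp2 gave the smallest p for the F minus M difference, at -1.23 (SE 0.36, edgeR adjusted p = 0.314), and DESeq2 called it there, among 0.995% of all genes. Gsto2, an omega class transferase, reached at most 1.199 CPM in AOM libraries and differed by 1.61 in M libraries (SE 0.59, edgeR adjusted p = 0.337).

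In AOM M libraries 14 of 71 members (19.7%) had groups that do not overlap, against 17% of all genes. Of these 9 lay above control, Cyp2j13, Cyp3a11, Cyp3a44, Gsta4, Gsto2, Gstp1, Gstp2, Gstt2 and Gstt3, and 5 below it, Cyp2b10, Cyp2e1, Cyp2t4, Gstcd and Gstm5. Several lay near the floor. Cyp2j13, Cyp3a11, Cyp3a44 and Cyp2t4 stayed under 1 CPM in both groups. Cyp2b10 had at most 0.072 CPM in black rice M libraries, against 0.0798 to 1.019 CPM in control M libraries. In F libraries there were 8 (11.3% against 19.6%). Several lists lay apart between the AOM F groups. The epithelium list had means of 9.24 to 9.34 log2 CPM in black rice F libraries, against 9.43 to 9.55 in control F libraries, the T cell list 0.95 to 1.14 against 1.43 to 2.87, the macrophage list 3.57 to 3.86 against 4.01 to 4.43, and the smooth muscle list 8.56 to 8.66 against 8.26 to 8.51. B and plasma cell genes summed to 2193 to 2973 CPM in black rice F libraries, against 5341 to 10590 CPM in control F libraries. The means of that list overlap, at 3.25 to 4.24 log2 CPM in black rice F libraries and 4.14 to 6.49 in control F libraries. The part of these lists in the F differences was not tested. The Hox list of the distal colon had means of -0.91 to 1.75 log2 CPM in black rice M libraries, against 1.91 to 4.80 in control M libraries, and the epithelium list 9.91 to 10.09 against 8.74 to 9.93. The Hox ranges do not overlap and the epithelium ranges do. The macrophage list, at 2.24 to 3.04 in black rice M libraries against 3.18 to 3.65 in control M libraries, and the hepatocyte list, at -1.48 to -1.27 against -0.66 to -0.42, lay apart too, and the part of these 2 lists was not tested. With the Hox list as covariate the member median in AOM M libraries was 0.11, with 40 positive and 31 negative, and with the epithelium list it was 0.19. Because the Hox ranges of the M groups do not overlap, diet and Hox level cannot be told apart in that fit. The part of the Hox list in the M differences was therefore not tested by it.

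Black rice against control in the third table gave 45 positive and 22 negative members, with a median of 0.09 against 0.01 over all genes, and 5 had an unadjusted p under 0.05 (7.46% against 7.94%). Gsta3 had 14.4, 13.1, 12.7 and 11.3 CPM in black rice libraries, against 9.52, 9.45, 7.94 and 10.1 CPM in control libraries. All black rice libraries lay above all control libraries, by a small margin (0.48, SE 0.13, edgeR adjusted p = 0.510). DESeq2 called it higher, as the 1 member among 0.694% of all genes. The member median of the third table depended on single libraries and was 0 without black rice replicate 1, with 34 positive and 33 negative. Cyp2j9, an arachidonic acid oxidase of the Cyp2j group, had 5.16, 5.03, 6.03 and 7.89 CPM in black rice libraries, against 3.66, 4.46, 4.48 and 4.25 CPM in control libraries, again without overlap (0.52, SE 0.17, edgeR adjusted p = 0.545). Gstt3, a theta class transferase, lay apart in the other direction, with 40.9, 36.6, 36.6 and 37.4 CPM in black rice libraries, against 41.2, 46.9, 44.3 and 44.4 CPM in control libraries (-0.22, SE 0.09, edgeR adjusted p = 0.613). The epithelium list had means of 9.66 to 9.82 log2 CPM in black rice libraries of this table, against 9.95 to 10.08 in control libraries, and so did not overlap between the arms. With that list as covariate the difference of Cyp2j9 was -0.24 and that of Cyp2e1, given further on, -0.34. Since the list lies apart between the arms, diet and epithelium level cannot be told apart in this fit, and the part of epithelium was not tested. Gsta3, Cyp2j9, Gstt3 and Cyp2e1 were the 4 of 67 members whose groups do not overlap (5.97% against 5.35% of all genes). Cyp2c55 showed no such separation, at 2950, 2552, 1307 and 922 CPM in black rice libraries and 1224, 984, 1164 and 2703 CPM in control libraries.

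Gsta3 can be set side by side across tables. It was higher on black rice in the third table, its AOM M libraries overlap at 31.1, 22.8 and 36.5 CPM on black rice and 30.4, 28.4 and 33.2 CPM on control, and its AOM F libraries on black rice lay below control. In the Apc table it had 18.9, 34.8 and 39.2 CPM in black rice F libraries, against 25.8, 32.8 and 42.2 CPM in control F libraries, and 38.3, 32.7 and 29.1 CPM in black rice M libraries, against 36.02, 62.0 and 17.7 CPM in control M libraries, with overlap in both codes. None of these differences passed the threshold.

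Genes that work with the members were looked at as a list of 46, covering receptors such as Nr1i2 and Nfe2l2, cytochrome reductases, glutathione synthesis, sulfate and glucuronate donors, other conjugating enzymes, and efflux pumps. None of them passed the threshold in any comparison, and at an unadjusted p under 0.05 there were 6 of 46 for black rice against control in the Apc table, where all genes gave 10.3%, 0 of 45 in the AOM table (3.06%) and 1 of 46 in the third table (7.94%). Black rice against control had 14 positive and 32 negative in the Apc table, 32 and 13 in the AOM table, and 26 and 20 in the third table, where 49.1%, 46.5% and 51.3% of all genes were positive. The smallest p belonged to Gss, glutathione synthetase, in the Apc table (-0.35, SE 0.12, edgeR adjusted p = 0.366), to the pump gene Abcb1b in the AOM table (-0.61, edgeR adjusted p = 1) and again to Abcb1b in the third table (0.51, edgeR adjusted p = 0.588). In the Apc table Abcc2, another pump, was next (0.62, SE 0.22, edgeR adjusted p = 0.373).

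The large spread of members within groups was then described against lists of cell type and position markers. For each list, the mean log2 CPM of its genes in a library was added to the fit of group means as a slope, so that only differences within groups count. A slope of 1 means that the gene rose by 1 on the log2 scale for each log2 unit of the list. There were 12 lists and 3 tables, hence 36 fits, chosen after the data were seen. The lists described in full are the 12 genes of small intestinal enterocytes (such as Fabp6, Sis, Apoa1 and Alpi) and the 7 Hox genes that mark position towards the distal colon (such as Hoxb13 and Hoxd13). In the Apc table the enterocyte list ran from 1.49 to 3.60 log2 CPM and the Hox list from 0.34 to 5.20.

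In Apc libraries 14 members rose with the enterocyte list (18.9% of 74), against 3.6% of all genes rising, and none fell, against 1.46% of all genes falling and 5.06% in either direction. The steepest was Cyp2c66 at a slope of 5.94 (SE 0.73, edgeR adjusted p = 0.000294). Its neighbours Cyp2c65 and Cyp2c55 had slopes of 3.81 (SE 0.54, 0.00088) and 2.67 (SE 0.33, 0.000294). The size of the Cyp2c66 slope rests on libraries near the floor, and it ran from 4.32 to 6.66 over the alternatives. Cyp2c66 had 2, 2 and 2 reads in black rice M libraries and 0, 0 and 702 reads in control M libraries. Cyp2c55 had 967, 1762 and 114.5 CPM in black rice F libraries and 432, 152 and 46.6 CPM in black rice M libraries. Control F libraries had 1613, 835 and 139 CPM, control M libraries 199.5, 79.6 and 2112 CPM, WT F libraries 1508, 202.5 and 1543 CPM, and WT M libraries 107, 576 and 224 CPM. Each arm held both high and low libraries, and the arms overlap in both codes.

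Cyp2d26 rose with a slope of 1.90 (SE 0.14, edgeR adjusted p = 1.81e-05), the smallest p of the 14, and Ugt1a1, which conjugates bilirubin, with 2.55 (SE 0.25). The others were Sult1d1, which sulfates catecholamines (0.94), Cyp3a44 (3.96), Cyp3a25 (2), Cyp2j6 (0.85), Ugt2b36 (1.83), Ugt2b5 (4.33), Gstk1 (0.78), Gsta2 (1.21) and Gsta4 (0.58). All 4 enzyme classes are among them. Cyp2d26, Ugt1a1, Cyp2c55, Cyp2c65, Cyp2c66, Cyp2j6, Cyp3a44, Cyp3a25, Ugt2b36 and Sult1d1 passed in all 24 alternatives tried in that table.

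**Figure D3:**
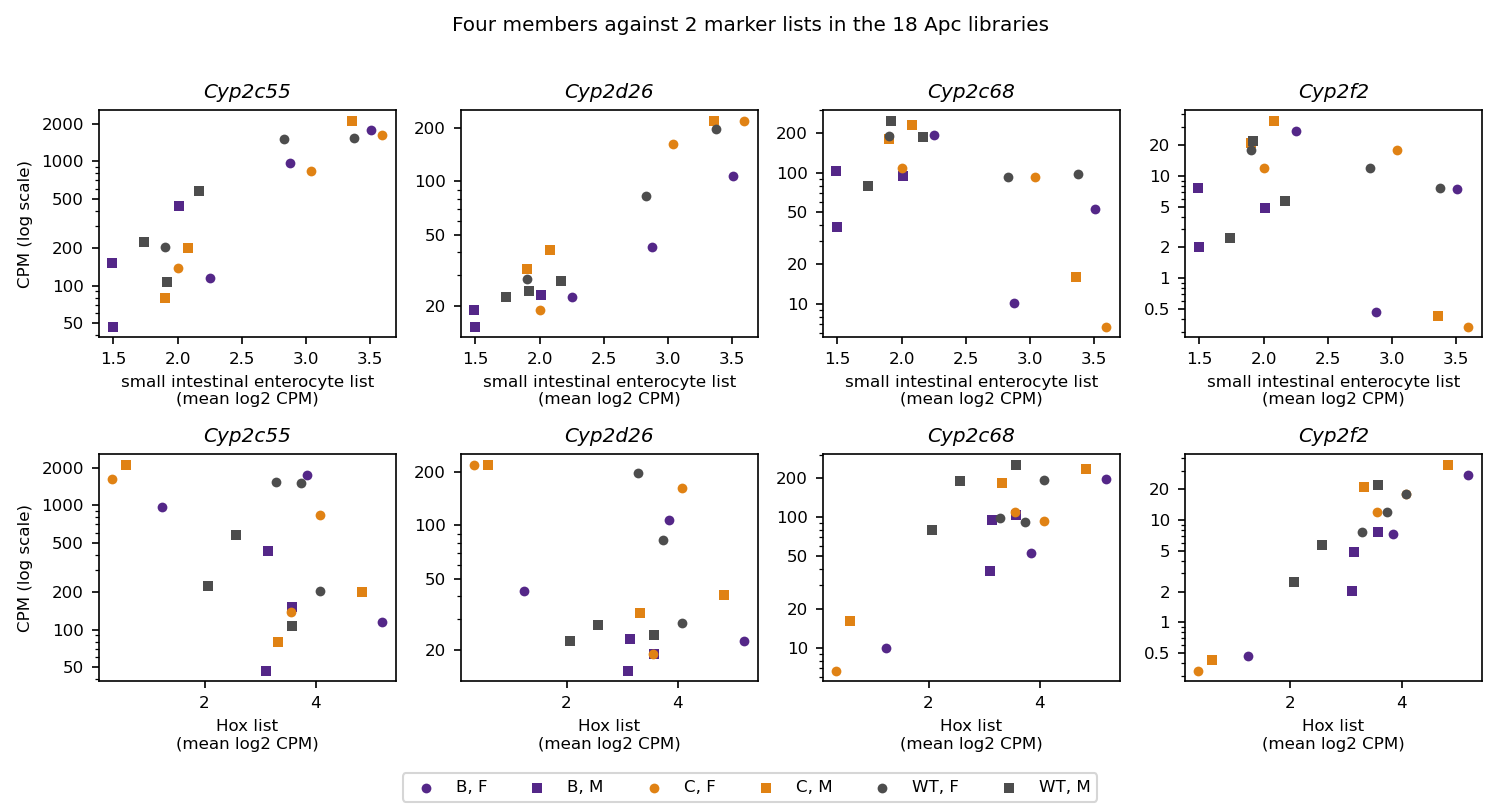
CPM of Cyp2c55, Cyp2d26, Cyp2c68 and Cyp2f2 (log scale) against the mean log2 CPM of the small intestinal enterocyte list (top) and the Hox list (bottom) in the 18 Apc libraries, with colour for arm (B black rice, C control) and shape for code. Cyp2c55 and Cyp2d26 climb with the enterocyte list, Cyp2c68 and Cyp2f2 climb with the Hox list, and the lowest Cyp2f2 values belong to the 3 libraries with the Hox list at 0.34, 0.59 and 1.23.

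On the Hox list 14 members passed (18.9% of 74, against 6.51% of all genes), of which 11 rose (14.9% against 3.69%) and 3 fell (4.05% against 2.82%). Cyp2f2, known as the naphthalene oxidase of lung club cells, was steepest at 1.57 (SE 0.12, edgeR adjusted p = 1.11e-05), followed by Cyp2d12 at 1.15 (SE 0.15, 0.00038), Cyp2c67 at 1.15 (SE 0.19, 0.00244) and Cyp2c68 at 1.05 (SE 0.10, 4.63e-05). Cyp2d10 (0.47), Cyp2d11 (0.69), Cyp2d34 (0.30), Cyp2c69 (0.54), Cyp2c70 (0.81), Cyp2a12 (0.52) and Gstm7 (0.26) rose as well. Ugt2b36 (-0.71), Cyp2j6 (-0.29) and Gstk1 (-0.28) fell, and these 3 are the members shared with the enterocyte list, 21.4% of each list of 14.

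Cyp2f2 had 0.465, 7.36 and 27.3 CPM in black rice F libraries and 4.89, 7.69 and 2.02 CPM in black rice M libraries. Control F libraries had 0.336, 17.8 and 11.9 CPM, control M libraries 34.7, 20.8 and 0.431 CPM, WT F libraries 11.9, 17.9 and 7.65 CPM, and WT M libraries 22.1, 5.71 and 2.46 CPM. The 3 libraries under 1 CPM were black rice F replicate 1, control F replicate 1 and control M replicate 3. Those are also the 3 with the lowest Hox means, 1.23, 0.34 and 0.59 log2 CPM. Without control F replicate 1 and control M replicate 3, the number of members past the threshold on the Hox list was 3 instead of 14. It was 4 without control M replicate 3 or without black rice F replicate 3, 6 without control M replicate 1, 7 without control F replicate 1 and 9 without WT M replicate 3. Cyp2f2, Cyp2d12 and Cyp2c68 passed in all 24 alternatives tried in the Apc table, Cyp2c69 in 12 and Gstk1 in 10 of them. Cyp2a12 passed in 8 of 23 and Cyp2d11 in 5 of 23, and both were under 1 CPM in every library. Several of the genes called on the Hox list are also known from liver. On the hepatocyte list, whose mean ran from 0.36 to 2.16 log2 CPM in the Apc table, 0 members passed (0% of all genes). There 23 of 74 had an unadjusted p under 0.05 (edgeR), which is 31.1%, against 11.4% of all genes.

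On the chromosomes both patterns lay in blocks. On chromosome 19 the order was Cyp2c55, Cyp2c65, Cyp2c66, then Cyp2c67, Cyp2c68, Cyp2c40, Cyp2c69, Cyp2c70 and Cyp2c23, with genes that are not members between them. The first 3 rose with the enterocyte list and had Hox slopes of -0.67, -1.10 and -1.33 that did not pass. The other 6 had positive Hox slopes, of which Cyp2c67, Cyp2c68, Cyp2c69 and Cyp2c70 passed, and negative enterocyte slopes that did not. On chromosome 15 Cyp2d22, Cyp2d11, Cyp2d10, Cyp2d9, Cyp2d12 and Cyp2d34 had positive Hox slopes. Of these 4 passed the threshold, among them Cyp2d11, which passed in 5 of 23 alternatives. Cyp2d26 at the end of the row had a Hox slope of -0.40 and rose with the enterocyte list. The HNF4 element stood in genes of both blocks, as given with the sequences.

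**Figure D4:**
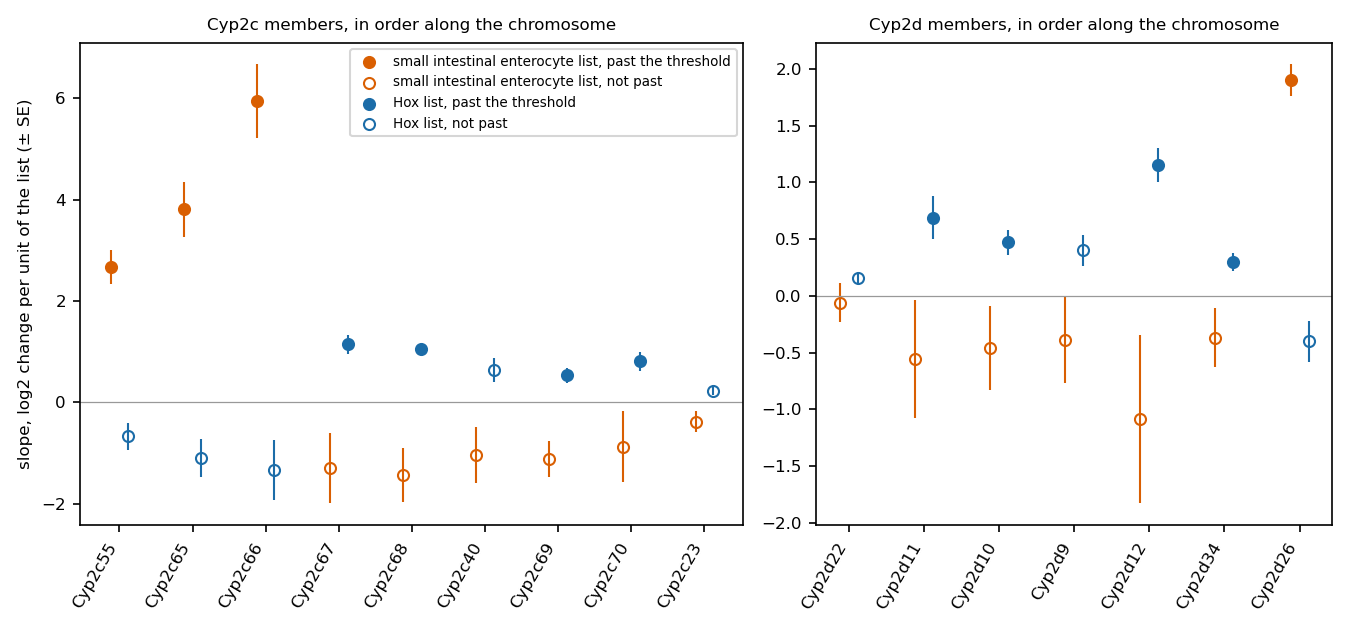
Slopes of the Cyp2c members (chromosome 19) and Cyp2d members (chromosome 15) on the enterocyte list and the Hox list in the Apc table, as log2 change per unit of the list, in chromosomal order, with bars of 1 SE and filled symbols past the adjusted threshold. Cyp2c55, Cyp2c65, Cyp2c66 and Cyp2d26 have positive enterocyte slopes from 1.90 to 5.94, and their neighbours have positive Hox slopes.

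The other tables hold different libraries. In AOM libraries 3 members rose with the enterocyte list, Cyp3a25 (3.99), Cyp2d26 (1.47) and Cyp2j6 (0.51), which is 4.23% of 71, against 0.228% of all genes in either direction and 0.00457% falling. In the third table Cyp2c66 (2.24), Cyp2d26 (0.99) and Cyp2c55 (0.91) rose, 4.48% of 67 against 0.365%. Of the 14 members called in the Apc table, all 14 had a slope of the same sign in the AOM table, where 95.7% of all genes called in the Apc table did, and 12 of the 12 tested did in the third table, against 80.1%. Of the 14 members called on the Hox list in the Apc table, 10 of the 11 tested had the same sign in the AOM table, against 86.2% of genes, and 9 of 11 in the third table, against 64.3%. The exception in the AOM table was Cyp2c69, with a slope of -0.20 (SE 0.22). No member passed on the Hox list in the AOM table (0.0228% of all genes) or in the third table (0%), with 13 of 71 (18.3% against 13.8% of all genes) and 10 of 67 (14.9% against 12.8%) at an unadjusted p under 0.05 (edgeR). In the third table the Hox list spanned 0.49 to 1.48 log2 CPM only. The enterocyte counts of both tables depended on single libraries. The AOM count was 0 without any 1 of black rice M replicates 1 to 3, control F replicates 1 to 3 or control M replicate 3, and 12 without control M replicate 2. The count of the third table was 16 without control replicate 2, 5 without black rice replicate 2 and 0 without any other library.

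The smooth muscle list moved with members in the third table, where its mean ran from 7.44 to 10.56 log2 CPM. There 22 of 67 members passed (32.8% against 21.3% of all genes), 17 falling and 5 rising. Cyp2c66 fell with a slope of -1.58, Ugt1a1 with -0.86, Ugt1a7c with -0.70 and Ugt2b5 with -0.58, while Sult4a1 at 0.59 and Sult2b1 at 0.34 rose. Without control replicate 4, which had the lowest list mean, 9 members passed. On the general epithelium list of the Apc table Gstk1 (1.5), Cyp2j6 (1.29), Sult4a1 (1.03) and Sult2b1 (0.89) rose, 5.41% of 74 against 6.73% of all genes, of which 3.85% rose and 2.88% fell. On the smooth muscle list of the Apc table no member passed, against 0.0277% of all genes, with 5 of 74 at an unadjusted p under 0.05 (edgeR), which is 6.76%, against 8.5%.

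Lists of other cell types moved with members as well. In Apc libraries 11 of 74 members fell with the B and plasma cell list (14.9%, against 4.2% of all genes in either direction), and none rose. Each of the 11 is also among the members that rose with the enterocyte list, with Cyp2c66 at -4.39 (SE 0.92, edgeR adjusted p = 0.0197), Cyp2c55 at -2.05 (SE 0.41, 0.0163) and Ugt1a1 at -2 (SE 0.38, 0.013). Among libraries of the third table, 19 of 67 members passed on the neuron and glia list (28.4% against 23.8%), 18 falling and 1, Sult4a1, rising with a slope of 1.01 (SE 0.10, edgeR adjusted p = 0.00034). Sult4a1, a sulfotransferase known from brain, was also the 1 member of 71 called on that list in AOM libraries (1.41% against 1.92%), at 1.13 (SE 0.13, edgeR adjusted p = 0.00376). These lists were each fitted alone, so their slopes cannot be told apart where the lists move together.

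Cyp2e1, which oxidises ethanol and small solvents and is known from liver and fat, was called on another list. Its slope on the adipocyte list (Adipoq, Plin1 and 5 others) was 0.97 in the Apc table (SE 0.12, edgeR adjusted p = 0.00163) and 1.11 in the AOM table (SE 0.12, edgeR adjusted p = 0.022), the 1 member of each table past the threshold (1.35% and 1.41% of members, against 0.111% and 0.0365% of all genes). At an unadjusted p under 0.05 (edgeR) 23 of 71 members had a slope on this list in the AOM table (32.4% against 8.22% of all genes), and 6 of 74 in the Apc table (8.11% against 5.93%). In the third table it was 1.70 (SE 0.48, edgeR adjusted p = 0.969). In that table Cyp2e1 had 1.64, 4.63, 1.76 and 4.31 CPM in black rice libraries, against 0.262, 0.765, 1.38 and 1.38 CPM in control libraries. The groups do not overlap (1.71, SE 0.54, edgeR adjusted p = 0.545), and the adipocyte list had means of 1.43, 2.26, 1.55 and 2.39 log2 CPM in the black rice libraries, against 0.40, 1.36, 1.28 and 0.92 in the control libraries. In the AOM table Cyp2e1 had 1.01 and 30.7 CPM in black rice F libraries and 0.384, 1.14 and 0.231 CPM in black rice M libraries, against 1.10, 49.1 and 6.13 CPM in control F libraries and 3.73, 2.43 and 1.91 CPM in control M libraries. The part of fat tissue in the diet and code differences of Cyp2e1 was not tested.

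**Figure D5:**
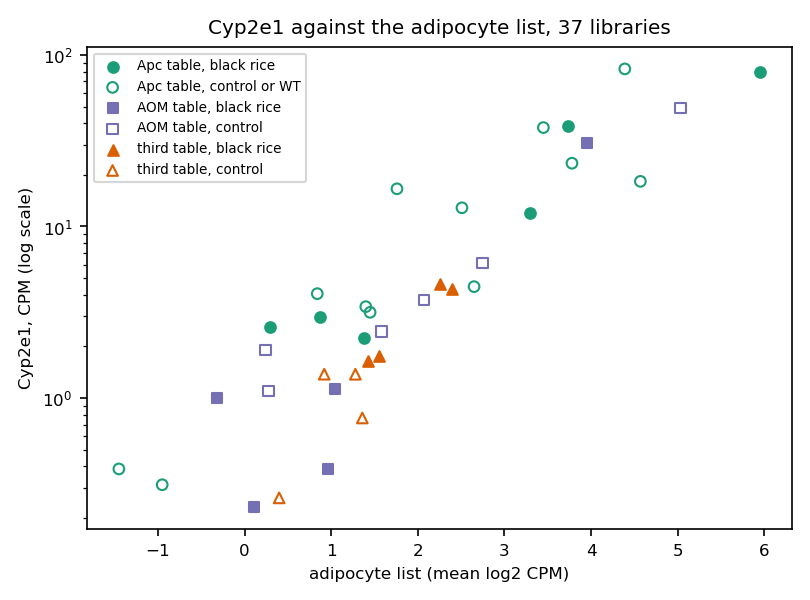
Cyp2e1 in CPM (log scale) against the mean log2 CPM of the adipocyte list in 37 libraries, with filled symbols for black rice and open symbols for control or WT. Cyp2e1 runs from 0.231 to 82.9 CPM and is higher where the list is higher in each table, and black rice libraries of the third table lie to the upper right of its control libraries.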

How the data were processed

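Per the labels' protocols, oligo(dT)-captured mRNA was sequenced, and the authors deposited raw read counts per gene in 3 tables. Counting of AOM libraries and of the third table used featureCounts 2.0.1 per the file headers, with read pairs assigned to Ensembl 104 exons of GRCm39, with no strand or multi-mapping option, and the Apc table names no command. Per the submitters' processing notes, FastQC, fastp, HISAT2 and SAMtools were used, with versions not given in the sources used here. Of 55416 gene IDs, 52083 had a symbol. Biotypes and exon lengths were matched by gene ID to GENCODE M21, and no coordinates of the tables were used.

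Each table was fitted alone with edgeR 4.0.16 (R 4.3.3): filterByExpr by group, TMM factors, group means, two-sided quasi-likelihood F tests and Benjamini-Hochberg adjustment over all tested genes (21624 in Apc, 21895 in AOM, 20831 in the third table), with 0.05 as threshold. Comparisons over both codes average the F and M differences. Marker lists entered as 1 slope beside the group means. The AOM fit left out black rice F replicate 3. The members, companion genes and marker lists were chosen with earlier results of these data known. Named members were the 3 smallest p in each direction per comparison (3 in all for F, M and F minus M), the 2 highest per family, and the members called on a marker list, and those of the clusters were chosen after their values were seen. Alternatives were DESeq2 1.42.0, limma-voom 3.58.1, other size factors and filters, a replicate block, covariates, and leaving out libraries. The fit was tested on simulated data. No pair of replicate libraries was identical. PCR reads without molecular identifiers are not independent molecules, and counts carry counting error besides the spread reported.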

Additional observations from a re-analysis of the deposited data

Results flagged for a closer look

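In the third table, where each arm had 4 libraries, 78 groups of values were looked at for a library far from the rest of its group (Dixon's test at 95%), and 7 stood out. Chance gives such a flag in about 1 of 20 groups. Of the 7, 5 belonged to control replicate 4. It had 2703 CPM of Cyp2c55, where the nearest control library had 1224 CPM, 119 CPM of Cyp2d26 (nearest 46.9 CPM), 41.4 CPM of Ugt1a1 (nearest 11.6 CPM), 75.6 CPM of Ugt2b5 (nearest 31.4 CPM) and 502 CPM of Gsto1 (nearest 422 CPM). The same library had the lowest smooth muscle list, at 7.44 log2 CPM, where the other control libraries lay between 9.63 and 10.56. Black rice replicate 4 stood apart in Cyp20a1 at 16.7 CPM, and black rice replicate 1 in Gstp3 at 5.42 CPM, where the nearest black rice library had 3.62 CPM. In data outside the comparisons, black rice F replicate 3 of the AOM table had 1.655% of its reads on members, above the range of 0.199 to 0.789% in the other AOM libraries.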

How the results depend on the processing

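Counts of members past the threshold held in 327 of 332 alternatives of the 13 comparisons. The exceptions were DESeq2, with 1 member in black rice against control of the Apc M libraries (Cyp3a25), 3 in F against M of the Apc table (Cyp3a25, Cyp3a44 and Cyp2w1), 1 in the F minus M difference of the AOM table (Gstp2) and 1 in the third table (Gsta3), where DESeq2 called 0.708%, 2.52%, 0.995% and 0.694% of all genes. Leaving out 1 library at a time gave 0 to 2 members in F against M of the Apc table (2 without control M replicate 3). For named members, 1494 of 1513 alternatives kept direction and side of the threshold, and 11 reversed. With black rice F replicate 3 included in the AOM table, Gsta3 differed by 1.46 and Gstp3 by 0.92 between diets, by 2.93 and 1.78 in F libraries, and Gstp3 by 1.71 for F minus M and 0.92 for F against M. For F against M of the AOM table, leaving out 1 library gave -2.81 to 4.01 for Cyp21a1 and -1.72 to 2.64 for Cyp2b10, negative without black rice F replicate 1. With the epithelium list as covariate in the third table, Cyp2e1 gave -0.34, Cyp2j9 -0.24 and Cyp26b1 0.06. That list does not overlap between the arms, so the fit cannot tell it apart from diet. The causes were not tested.

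Slopes depended more on single libraries. On the Hox list of the Apc table leaving out 1 library gave 4 to 18 members, and leaving out the 2 libraries farthest from the median gave 3. The enterocyte list gave 11 to 19 members in the Apc table, 0 to 12 in the AOM table and 0 to 16 in the third table when 1 library was left out. Without a low-count filter it gave 10 in the AOM table and 13 in the third table, limma-voom gave 5 in the AOM table, and leaving out the 2 farthest libraries gave 6 and 0. The smooth muscle list of the third table gave 9 to 26, and 7 without the 2 farthest. Of 1107 alternatives of the members called, 879 kept their call, 228 lost it and 0 reversed. Cyp2e1 on the adipocyte list kept its call in 24 of 24 alternatives in the Apc table and 11 of 17 in the AOM table.

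Libraries with the same replicate number did not deviate together (mean correlation -0.03 in the Apc table, 0.09 in AOM, -0.21 in the third table, with 13 of 45, 7 of 15 and 1 of 4 pairs over 0.1), so the numbers are not taken to pair them. A replicate block gave 0 members in all 13 comparisons, and 17 on the enterocyte list of the third table, where the fit without it gave 3. Slopes on the B and plasma cell list and on the neuron and glia list were not rerun under alternatives. Depth limits members with few reads, such as Cyp3a25 with 1 to 79 reads in Apc M libraries.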
